A study of Mus musculus with 12 samples.

Results

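Cluster 7 (Int 1) was 1 of 7 clusters that the authors named as interneurons among the 25 clusters of their snRNAseq data on embryonic mouse cortex. All nuclei that the authors assigned to Cluster 7 were used, which gave 3544 of 50550 nuclei, or 3544 of the 13749 interneuron nuclei. The nuclei came from 5 embryos of C57BL/6J dams given saline and 6 embryos of dams given EtOH by injection. Injections were once daily from the onset of neurulation into cortical neurogenesis, and the labels give the age as embryonic day 14. Dams S1 and E1 with 2 embryos each were processed in batch 1, and dams S2 and E2 with 3 and 4 embryos in batch 2, so that each treatment rested on 2 dams. Littermates were taken as independent in the tests, and a further saline embryo, S2-3, was not used here. The sources used here name no transgene or mutant allele in either group. Levels are given as CPM, the UMIs of a gene per 1000000 UMIs summed over the Cluster 7 nuclei of 1 embryo, and errors are SDs between embryos.

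Cortical interneurons are inhibitory neurons that make GABA with the enzymes Gad1 and Gad2 and load it into vesicles with the transporter Slc32a1. They are born in the ganglionic eminences of the ventral forebrain under Dlx transcription factors and migrate into the cortex. Excitatory neurons load glutamate into vesicles with Slc17a6 or Slc17a7 instead, and the transcription factors Sim1 and Otp are known from neurons of the hypothalamus and amygdala. Imprinted genes are read from only the maternal or only the paternal copy, and many of them, including Magel2 and Peg3, are active in the hypothalamus.

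The 3 genes that came with the cluster's name were present, but Cluster 7 was not a cluster of GABA neurons alone. Snhg11, a small nucleolar RNA host gene of neurons, had its highest level of the 25 clusters there, at 1198 ± 364 CPM (n = 11 embryos), next to 1172 ± 311 CPM in Cluster 19 and 452 ± 211 CPM in Cluster 15, the next interneuron cluster. Magel2, an imprinted gene of the Prader-Willi region, was also highest in Cluster 7, at 30.0 ± 15.9 CPM, and its spread overlapped the 28.5 ± 15.7 CPM of Cluster 25. Gad2 was at 608 ± 134 CPM, the lowest of the 7 interneuron clusters, which reached 1248 ± 165 CPM in Cluster 23, and Gad1 was likewise the lowest of these clusters at 182 ± 70.3 CPM. Slc17a6 was at 116 ± 23.7 CPM, above every other interneuron cluster and below the 541 ± 43.8 CPM of Cluster 9. Levels across clusters are descriptions, with no test, because the clusters were built from these genes.

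**Figure D1:**
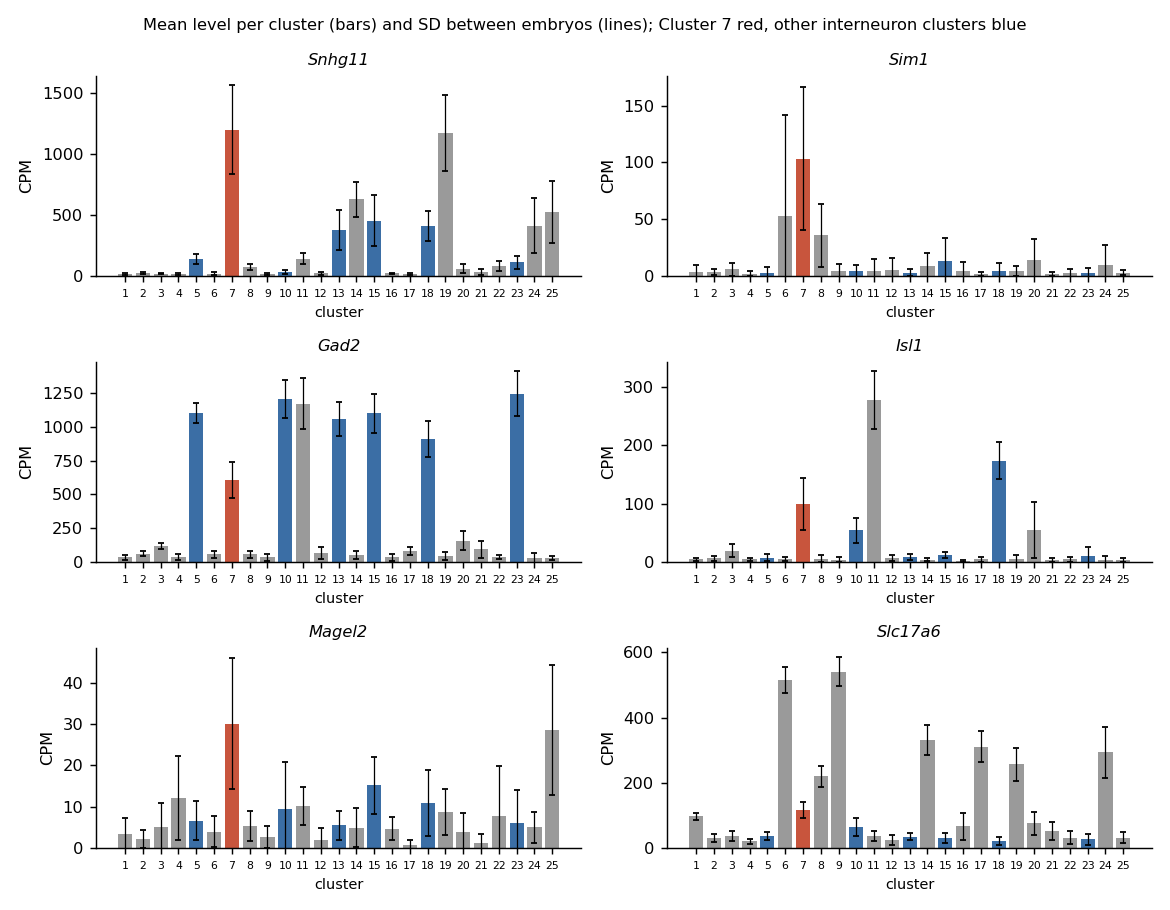
Mean CPM of 6 genes in each of the 25 clusters (bars), with the SD between embryos (lines). Cluster 7 is red and the other interneuron clusters are blue. Cluster 7 has the highest mean of Snhg11, Magel2 and Sim1, the lowest Gad2 of the interneuron clusters, and Slc17a6 at 116 CPM.

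When nuclei were sorted by the genes they showed, 52.2% of the 3544 nuclei had UMIs of Gad1, Gad2 or Slc32a1 only, 20.7% had UMIs of Slc17a6 or Slc17a7 only, 21.1% had both and 6.01% had neither. UMIs of Slc17a6 or Slc17a7, alone or with GABA genes, were thus found in 41.8% of Cluster 7 nuclei. The same was so for 17.5% of nuclei in Cluster 5, an interneuron cluster with Lhx6, and these were nearly all nuclei with both, as 99.6% of Cluster 5 nuclei had a GABA gene. After each nucleus was thinned to 2000 UMIs, which left out 25 shallower nuclei, 53.8% of Cluster 7 nuclei had GABA genes only, 13.3% had glutamate genes only and 4.26% had both. At this equal depth, a glutamate gene was found in 17.6% of Cluster 7 and 6.14% of Cluster 5 nuclei.

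The 11 libraries differed in the share of nuclei with UMIs of genes of another cell type. Among projection neurons of Cluster 1, which should lack Gad2, thinned nuclei with a Gad2 UMI made up 3.27% to 10.96% in saline embryos and 1.45% to 4.73% in EtOH embryos. As deposited, these shares were 8.39% to 42.1% and 2.87% to 9.44%. Both pairs of ranges overlapped, with medians of 8.39% and 2.27% thinned and 26.7% and 6.41% as deposited. The difference between the groups was not tested, and free RNA, doublets and low transcription of Gad2 cannot be told apart in these shares. Adarb2, which marks caudal eminence interneurons, was chosen after its values were seen, and its differences were not tested. As deposited it was found in 24.7% to 83.9% of Cluster 1 nuclei in saline and 15.8% to 28.6% in EtOH embryos. In Cluster 7 these shares were 60.8% to 85.2% and 33.3% to 49.1%. After thinning the Cluster 7 ranges were still apart, with medians of 50.1% and 31.6%. Total depth of Cluster 7 ranged from 499301 UMIs in E1-2 to 10295997 UMIs in S2-1. Among the 3544 nuclei, no barcode was seen in Cluster 7 of more than 1 library. Cluster 7 barcodes were not searched for in other clusters of other libraries. Over all clusters, 314 of 50226 barcodes were seen in more than 1 library.

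The transcription factors of the diencephalon and amygdala stood out among the lists of cell identity. Of the 23 listed, 13 were at 5 CPM or more in Cluster 7, and of these 4 had their highest level of all clusters there, 9 were among the top 3 clusters and 11 were the highest of the interneuron clusters. Over all 10607 genes at that level, 1.91% had their highest level in Cluster 7 and 8.56% were among the top 3. Here and in the lists below, genes were kept by their level in Cluster 7 itself, which favours high ranks there. Sim1 was at 103 ± 63.0 CPM and at most at 13.1 ± 20.6 CPM in another interneuron cluster. Outside these it was at 52.8 ± 89.2 CPM in Cluster 6, within the spread, and at 35.9 ± 27.7 CPM in Cluster 8. Otp, which acts with Sim1 in hypothalamic neuroendocrine neurons, was at 11.2 ± 8.16 CPM, with 2.99 ± 7.56 CPM in Cluster 6 as the next level. Onecut3 and Fezf1 completed the 4, at 8.50 ± 7.27 and 6.35 ± 4.45 CPM.

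The LIM homeodomain factor Isl1, a gene of striatal and hypothalamic neurons, was at 99.3 ± 44.1 CPM, the third highest after Cluster 11 (277 ± 49.5 CPM) and Cluster 18 (174 ± 32.1 CPM). Zic1, Lhx1 and Lhx5 were each among the top 3. Prdm12, a regulator of sensory and hypothalamic neurons that was on no list and was chosen after its values were seen, was highest in Cluster 7 at 27.2 ± 13.1 CPM and reached 7.65 ± 5.29 CPM in Cluster 12. None of the 9 Dlx network genes had its highest level or a top 3 level in Cluster 7, and Dlx6os1 was the lowest of the interneuron clusters at 608 ± 327 CPM. Lhx6, which marks interneurons of the medial eminence, was at 16.1 ± 9.53 CPM against 285 ± 21.5 CPM in Cluster 5, and Adarb2, which marks those of the caudal eminence, was at 1021 ± 258 CPM against 18431 ± 1737 CPM in Cluster 15.

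Sim1 and Isl1 UMIs were found mostly in different nuclei, and these differed in their transmitter genes. Sim1 UMIs were found in 483 nuclei (13.6%), and Slc17a6 or Slc17a7 UMIs in 74.7% of these against 36.6% of the other 3061 nuclei. GABA genes went the other way, with 48.4% of Sim1 nuclei against 77.2% of the others. Otp UMIs were found in 37.7% of Sim1 nuclei and in 2.06% of the others. Isl1 UMIs were found in 1268 nuclei (35.8%), of which 95.1% had a GABA gene and 25% a glutamate gene, while Sim1 UMIs were found in 5.68% of them. Prdm12 nuclei (410) resembled Isl1 nuclei, with GABA genes in 96.1% and glutamate genes in 18.3%. Median depth was 10385 UMIs in Sim1 nuclei and 9551.5 UMIs in Isl1 nuclei. These shares pool nuclei of all embryos and are descriptions. Of the 483 Sim1 nuclei, 208 came from saline embryo S2-1. In Cluster 1, 2.22% of the nuclei of all embryos had a Sim1 UMI, but 11.99% of those of S2-1.

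Embryos differed in how many Sim1 nuclei they had. Among saline embryos, 5.59% of Cluster 7 nuclei had a Sim1 UMI in S1-1, 13.8% in S1-2, 22.1% in S2-1, 14.0% in S2-2 and 6.76% in S2-4. Among EtOH embryos, there were none of 105 nuclei in E1-1, which allows a share of nuclei with a UMI of up to 2.86% by 3 counts (the Wilson 95% upper limit is 3.53%) at the lowest median depth of all embryos, and 7.27% in E1-2, 9.09% in E2-1, 15.3% in E2-2, 5.33% in E2-3 and 11.3% in E2-4. The groups overlapped, and S2-1 and E2-2, with the most Cluster 7 nuclei, also had the highest Sim1 share in their group. S2-1 also had the highest Sim1 share of all embryos in Clusters 1 and 5, at 11.99% and 10.2%, where the saline medians were 2.09% and 1.49%. In summed counts Sim1 was 115 ± 74.1 CPM in saline and 93.5 ± 57.5 CPM in EtOH embryos, and the log2 difference of −0.22 ± 0.59 (SE) was not called (edgeR adjusted p = 0.907).

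Most of the neuropeptides that define hypothalamic cell types were scarce. Of 19 listed genes in the tables, only Sst and Agrp reached 5 CPM in Cluster 7, and both had their highest level elsewhere. The annotation of Agrp overlaps others on both strands, so its counts are uncertain. Nuclei with UMIs of Pomc (39), Trh (8) and Avp (2) were few among the 3544. Of the genes of dividing cells, Top2a and Mki67 were at 21.04 ± 13.1 and 22.2 ± 9.41 CPM, eighteenth of the 25 clusters in both cases. Top2a UMIs were found in 9.26% of nuclei and Mki67 UMIs in 16.7%, beside 7.24% and 15.2% in Cluster 1.

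Many imprinted genes were high in Cluster 7. Of the 30 imprinted genes at 5 CPM or more, 7 had their highest level of all clusters there and 14 were among the top 3. The 7 were Magel2, Calcr, Peg3, Usp29, Zim1, Zdbf2 and Ube3a, and 4 others, Snrpn, Meg3, Dlk1 and Nnat, were second. Calcr, the calcitonin receptor, was at 17.2 ± 14.8 CPM and reached 6.89 ± 11.5 CPM in Cluster 15. Peg3, a zinc finger protein, was at 148 ± 49.3 CPM, and 113 ± 22.3 CPM in Cluster 21. Usp29, a deubiquitinase of the same domain, was at 1049 ± 140.5 CPM, and 789 ± 62.9 CPM in Cluster 19. Zim1, another gene of that domain, was at 15.5 ± 8.89 CPM, within the spread of Cluster 25 at 14.3 ± 7.64 CPM.

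Peg3 and Usp29 are read in opposite directions from starts that lie close together on chromosome 7, at 6730419 on the minus strand and 6730583 on the plus strand (GRCm38.p6, RefSeq). The stretch between them, chr7:6730420-6730582 on the plus strand, is shown because both genes had their highest level in Cluster 7. Capitals mark the letters CCAAT, searched on both strands (CCAAT or ATTGG), and 2 matches were found, at positions 65 and 120 from the left end.
Peg3-Usp29: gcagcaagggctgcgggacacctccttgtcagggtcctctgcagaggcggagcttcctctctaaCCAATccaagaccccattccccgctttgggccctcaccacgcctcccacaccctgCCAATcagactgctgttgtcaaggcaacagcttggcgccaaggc
Of 32851 promoter windows of the same length, 25.9% held at least 1 match and 6.59% at least as many. The stretch has 5 CpG sites and a GC content of 61.96%. The matches are descriptions of the letters and not of bound sites.

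Several sodium channel genes were also high in Cluster 7. Of 23 sodium and calcium channel genes at 5 CPM or more, 4 were highest in Cluster 7 and 9 among the top 3. Scn9a, a sodium channel also known from sensory neurons, was at 187 ± 28.2 CPM, 95.1 ± 30.2 CPM in Cluster 15 and 146 ± 70.3 CPM in Cluster 24. Nalcn, the sodium leak channel, was at 427 ± 67.0 CPM and the splicing factor Nova1 at 496 ± 87.4 CPM, both the highest of all clusters. Scn3a and Scn2b were also highest, within the spread of the next cluster. No potassium channel or GABA-A receptor subunit was highest there, although 6 of 27 and 4 of 11 were among the top 3, with the GABA-A subunit Gabrg3 second at 564 ± 100.5 CPM.

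The share of nuclei in Cluster 7 was compared first after EtOH. In the saline group it was 4.92% in S1-1, 6.49% in S1-2, 15.7% in S2-1, 4.98% in S2-2 and 4.103% in S2-4. In the EtOH group it was 3.62% in E1-1, 2.34% in E1-2, 6.07% in E2-1, 13.01% in E2-2, 3.20% in E2-3 and 7.10% in E2-4. One embryo of each group stood above its littermates, and the groups overlapped. The means were 7.23% ± 4.79 (SD, n = 5) and 5.89% ± 3.93 (SD, n = 6), which differed by −1.34 percentage points, less than the spread between embryos (two-sided exact permutation, p = 0.563, with p = 0.543 over splits kept within batches). Without S2-1 the difference was 0.766, in the other direction.

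Median depth was lower on average in EtOH embryos. Median UMIs per Cluster 7 nucleus were 11624.5 and 11273 in S1-1 and S1-2, 9751, 9663 and 8322.5 in S2-1, S2-2 and S2-4, 5153 and 8232 in E1-1 and E1-2, and 9084, 9150, 8985 and 8465 in E2-1 to E2-4. The group means were 10127 ± 1339 and 8178 ± 1527, a difference of −1949 UMIs (exact permutation test, p = 0.0433). With splits kept within batches the exact permutation p was 0.0952, and leaving out S1-1, S1-2, S2-1, S2-2, E1-1, E1-2 or E2-4 gave p = 0.0714 to p = 0.100 by the same exact test.

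**Figure D2:**
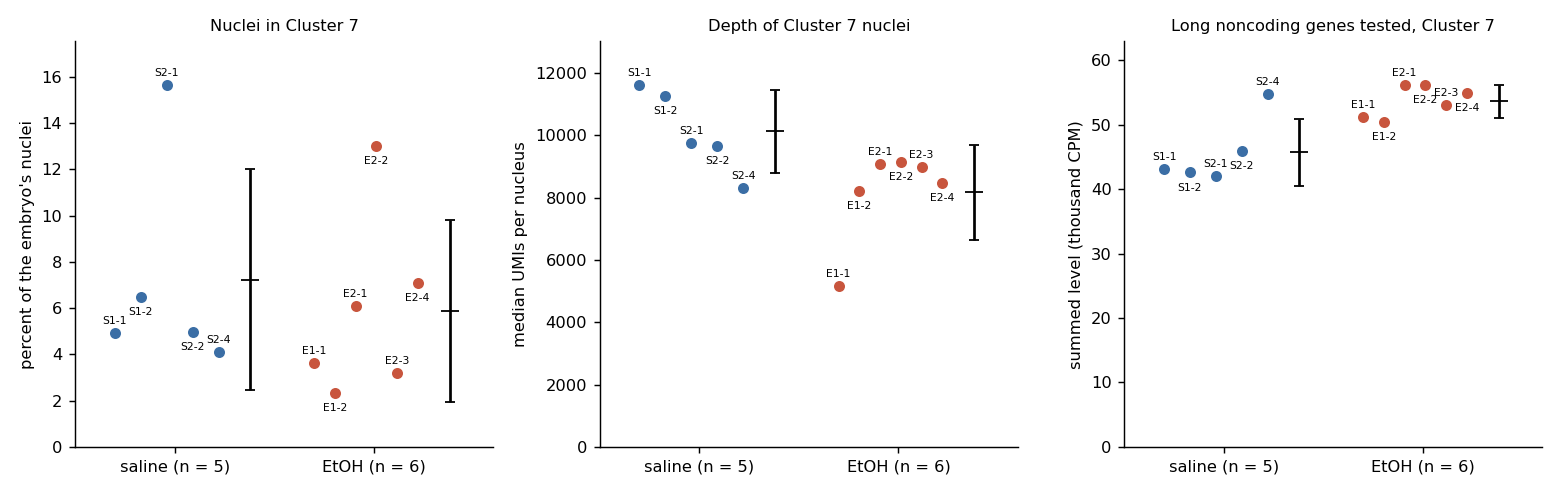
Each point is 1 embryo: percent of its nuclei in Cluster 7 (left), median UMIs per Cluster 7 nucleus (middle) and summed level of the long noncoding genes tested in Cluster 7, on an axis of CPM divided by 1000 (right). Bars are the mean and SD. S2-1 and E2-2 have the highest shares, E1-1 the lowest depth, and S2-4 is the only saline embryo at the long noncoding level of the EtOH embryos.

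The 4 classes of nuclei by GABA and glutamate genes were compared in the same way, with p adjusted over the 4. Nuclei with both made up 22.6% ± 8.74 in saline and 10.5% ± 4.41 in EtOH embryos, with a range of 13.2% to 36.6% in saline and 4.00% to 16.9% in EtOH. The difference of −12.1 percentage points passed the test (exact permutation, adjusted p = 0.0260), but in nuclei thinned to 2000 UMIs it was −1.80, from 4.55% in saline to 2.75% in EtOH embryos (exact permutation, adjusted p = 0.329) and within batches the adjusted exact p was 0.0571. Leaving out S2-1, E1-1, E1-2, E2-2, E2-3 or E2-4 also gave adjusted exact p values of 0.0635 to 0.0952, with differences of −8.59 to −12.4. In Cluster 5, nuclei with both made up 13.7% to 27.7% in saline and 5.67% to 12.9% in EtOH embryos, and 5.89% to 7.98% and 2.13% to 6.19% after thinning, where the ranges overlapped, with no test of the difference, beside the Gad2 UMIs in Cluster 1 given above. Neither GABA only (50.4% ± 8.66 and 56.6% ± 11.3) nor glutamate only (20.5% ± 6.26 and 25.04% ± 11.1) passed (exact permutation, adjusted p = 0.554 for both). Median depth and the Gad2 shares in Cluster 1 were both lower on average in EtOH embryos, and their part in the difference was not tested beyond the thinned value.

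**Figure D3:**
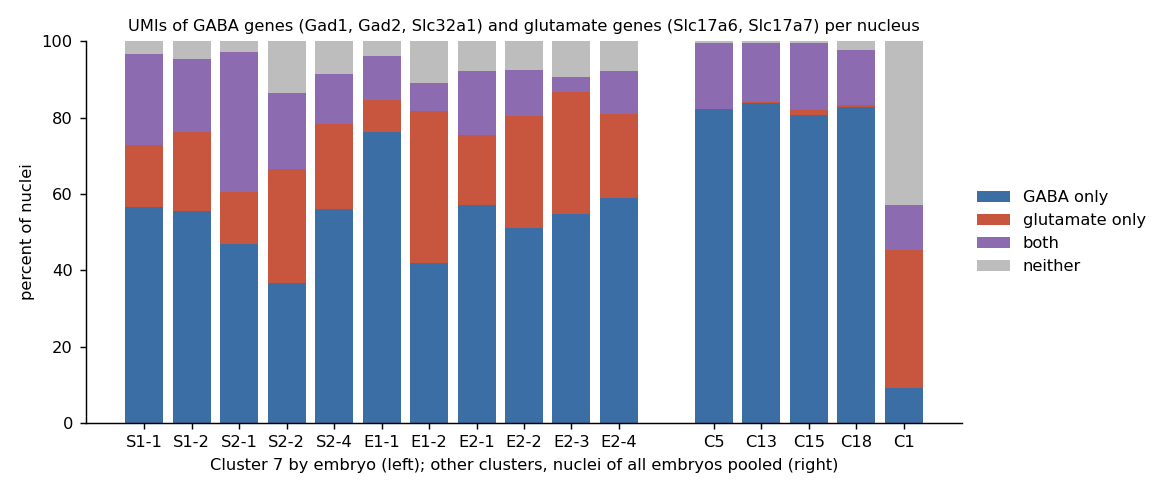
Percent of nuclei with UMIs of GABA genes only, glutamate genes only, both or neither, for Cluster 7 in each embryo (left) and for Clusters 5, 13, 15, 18 and 1 with the nuclei of all embryos pooled (right). Glutamate-only nuclei are seen in Cluster 7 in every embryo, and 99.6% of Cluster 5 nuclei have a GABA gene.

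Few genes of Cluster 7 were called after EtOH when counts were summed per embryo and tested with edgeR. Calls needed an adjusted p under 0.05 together with a fold change below 0.8 or above its inverse, which is the fold rule of the study. Of 11284 genes tested, 6 were higher (0.0532%) and 3 were lower (0.0266%). At an unadjusted p under 0.05, 1131 genes were higher (10%) and 791 were lower (7.01%). The number of calls moved with the embryos left out and with the fit. DESeq2 called 173 higher and 51 lower (1.99%). EdgeR called 687 and 187 without saline embryo S2-4. Without EtOH embryo E2-2 edgeR called 0 and 0, where 884 and 580 genes had an unadjusted p under 0.05. With the dam as a random block, limma's voom called 654 and 120. EdgeR on counts summed per dam called 288 and 55, or 342 and 109 with batch as a term. The voom fit changed both tool and block, and voom without the block was not run. The parts of tool and dam thus cannot be told apart there. The fitted correlation within dams was −0.035 in voom, and the sums per dam rest on 2 dams per treatment. All 9 genes were among the calls of DESeq2, of these 3 fits with the dam and of edgeR without S2-4. With library totals in place of TMM, 1 gene was higher and 1 lower. In a sum over nuclei, fewer nuclei of a kind and less RNA per nucleus cannot be told apart.

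Bmpr1b, a receptor for bone morphogenetic proteins, was the gene with the smallest p. It lies on chromosome 3 from 141837136 to 142169425 on the minus strand (GRCm38). Its levels were 37.9, 40.7, 52.3, 72.3 and 44.8 CPM in saline embryos S1-1, S1-2, S2-1, S2-2 and S2-4, and 28.5, 16.02, 23.1, 18.97, 17.2 and 24.8 CPM in EtOH embryos E1-1, E1-2, E2-1, E2-2, E2-3 and E2-4. Every EtOH embryo was below every saline embryo, as was so for 0.665% of genes tested. These levels rested on 119 to 538 UMIs of Bmpr1b in saline and 8 to 119 UMIs in EtOH embryos. Bmpr1b fell by 1.22 ± 0.17 (SE) on the log2 scale (edgeR adjusted p = 0.0114), and it was called in 17 of 25 alternatives, with adjusted p of 3.34e-06 to 0.670. Many of these left out 1 embryo only. It was not called in thinned nuclei (edgeR adjusted p = 0.132) or with equal nuclei per embryo (edgeR adjusted p = 0.670). Nor was it called without the nuclei of highest UMIs (edgeR adjusted p = 0.0687). In these 3 fits the log2 difference was −1.32, −0.88 and −1.15. Here and below, counts of alternatives leave out those in which the gene was not tested.

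Pik3r3, a regulatory subunit of PI3 kinase on chromosome 4 from 116221618 to 116303056, was at 15.004, 14.95, 19.5, 16.1 and 12.8 CPM in saline and at 10.1, 6.01, 7.86, 8.61, 5.72 and 8.42 CPM in EtOH embryos in the same order. The groups did not overlap, at 34 to 201 UMIs in saline and only 3 to 54 UMIs in EtOH embryos, and Pik3r3 fell by 1.02 ± 0.18 on the log2 scale (edgeR adjusted p = 0.0484, called in 8 of 23 alternatives). Pik3r3 and Gm43517 were not tested in thinned nuclei or with equal nuclei per embryo. Gm43517 was lower at 8.87 ± 3.71 against 18.3 ± 3.98 CPM, with EtOH embryo E2-3 at 15.7 CPM within the saline range. Its annotation overlaps others on the same strand, as do those of Pik3r3 and of Gm29017 below, so the counts of these 3 genes are uncertain.

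All 6 genes called higher were long noncoding RNAs. Gm14211, on chromosome 2 from 135686174 to 135693154, was at 4.81, 5.61, 4.08, 5.23 and 11.7 CPM in saline embryos S1-1, S1-2, S2-1, S2-2 and S2-4 and at 16.8, 20.03, 17.02, 24.1, 25.7 and 17.2 CPM in EtOH embryos. Every EtOH embryo was above every saline embryo, as was so for 0.939% of genes tested, and S2-4 stood closest to the EtOH group, at depths of 12 to 42 UMIs of Gm14211 in saline and 10 to 151 UMIs in EtOH embryos. Gm14211 rose by 1.74 ± 0.24 on the log2 scale (edgeR adjusted p = 0.0114, called in 18 of 24 alternatives). It was not tested in thinned nuclei or with equal nuclei per embryo. Grip1os2, on chromosome 10 from 119746063 to 119761699, was at 14.0, 11.2, 14.2, 15.7 and 29.0 CPM in saline and at 30.2, 36.1, 42.8, 42.1, 38.6 and 34.1 CPM in EtOH embryos, again without overlap and with S2-4 nearest. Its log2 difference was 1.20 ± 0.19 (edgeR adjusted p = 0.0355, called in 11 of 26 alternatives).

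The other 4 had saline means of 2.14 to 11.8 CPM and EtOH means of 8.71 to 26.3 CPM. 4930587E11Rik rose by 1.65 ± 0.27, Gm29017 by 1.91 ± 0.33, Gm16152 by 1.10 ± 0.20 and Gm26582 by 1.20 ± 0.22 on the log2 scale, each at an edgeR adjusted p of 0.0484 and each called in 6 to 8 of 22 to 26 alternatives. Gm29017 was not tested in thinned nuclei or with equal nuclei per embryo, where Gm16152 and Gm26582 were tested but not called. 4930587E11Rik was not tested in thinned nuclei and not called with equal nuclei. Saline embryo S2-4 was the highest of its group for all 6 genes, and Gm16152 and 4930587E11Rik overlapped between the groups. Each of the 6 lies opposite a coding gene. The study's methods give Cell Ranger at its defaults, which for this kit count sense reads, and do not name the strand setting itself. Among the partners, log2 differences were 0.05 for Plcb4, 0.01 for Grip1, 0.31 for Cntn3, 0.10 for Mpp4, −0.09 for Aff3, and 0.13 and −0.34 for Cdkl2 and G3bp2, none of which was called.

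**Figure D4:**
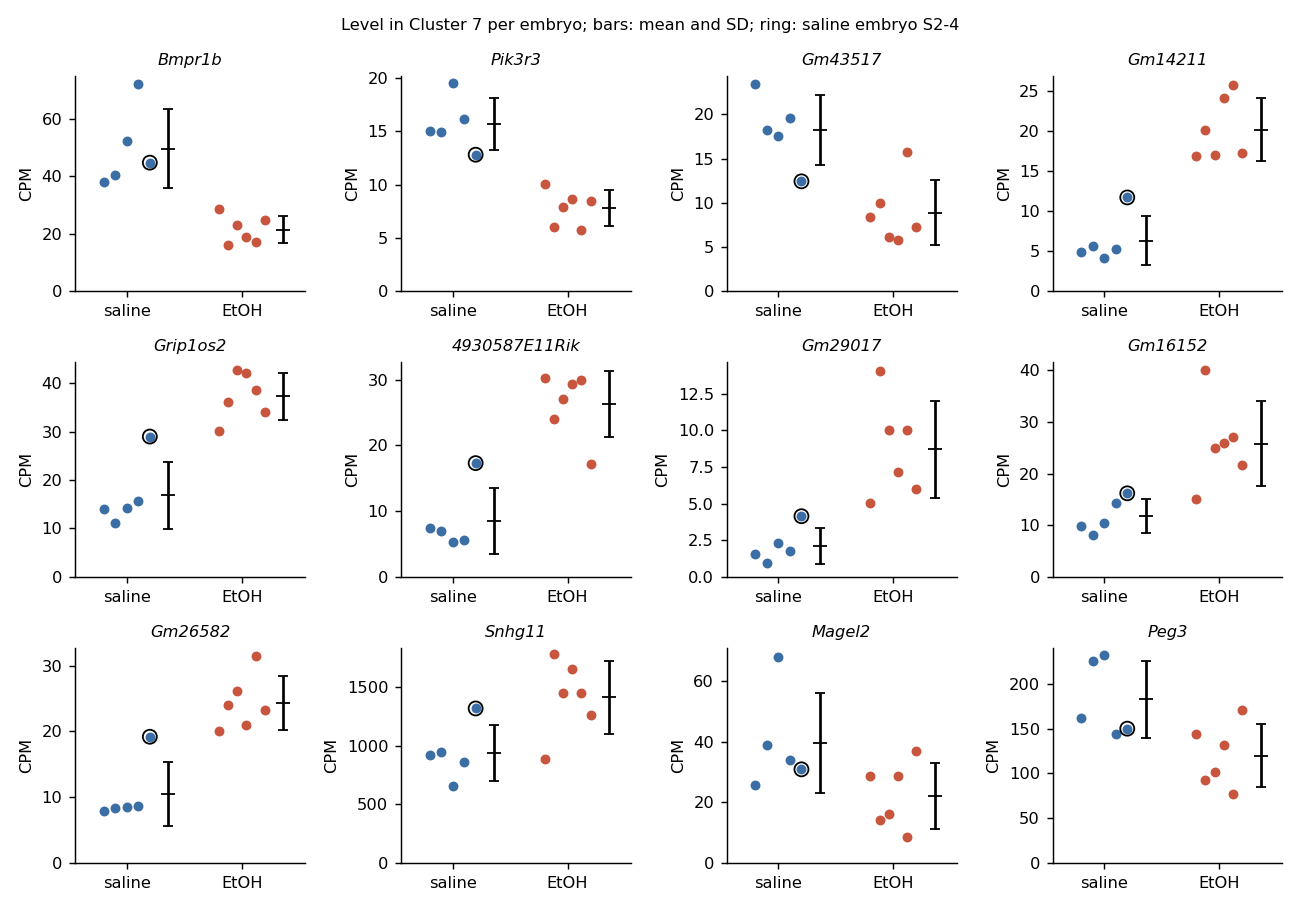
CPM in Cluster 7 of the 9 called genes and of Snhg11, Magel2 and Peg3, with 1 point per embryo and the mean and SD beside each group. Rings mark saline embryo S2-4, which lies nearest to the EtOH embryos for Gm14211, Grip1os2 and Gm26582.

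Long noncoding genes as a class leaned to higher values in EtOH embryos, a grouping that was chosen after the calls were seen. Of 931 tested, 358 were higher at an unadjusted p under 0.05 and 29 were lower, with a median log2 difference of 0.42. Among 10244 protein-coding genes, 755 were higher and 755 lower, with a median of 0.00 to 2 decimals. This balance differed with level, at 551 higher and 200 lower among the 5546 coding genes with a mean log2 CPM under 5 (median 0.07) and 28 and 270 among the 1499 with 7 or more (median −0.10), and 739 of the 931 long noncoding genes lay under 5. The median of the long noncoding genes was 0.31 to 0.51 in the alternatives examined and 0.31 without S2-1 and E2-2, and it was 0.43 and 0.44 for genes of low and middle level but 0.02 for the 45 genes with a mean log2 CPM of 7 or more. In Clusters 13, 15 and 18 of the same embryos, the medians were 0.59, 0.52 and 0.48 over the 439, 549 and 424 long noncoding genes tested there, and the difference between clusters was not tested. Summed over these genes the level was 43108, 42603, 42120, 45976 and 54744 CPM in saline and 51181, 50370, 56161, 56208, 53024 and 54990 CPM in EtOH embryos, with S2-4 inside the EtOH range. Depth also differed between the groups, and at an equal depth of 2000 UMIs per nucleus the median was 0.51, with 142 higher and 9 lower among the 338 long noncoding genes then tested. The part of UMIs from other cell types in this difference was not tested.

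**Figure D5:**
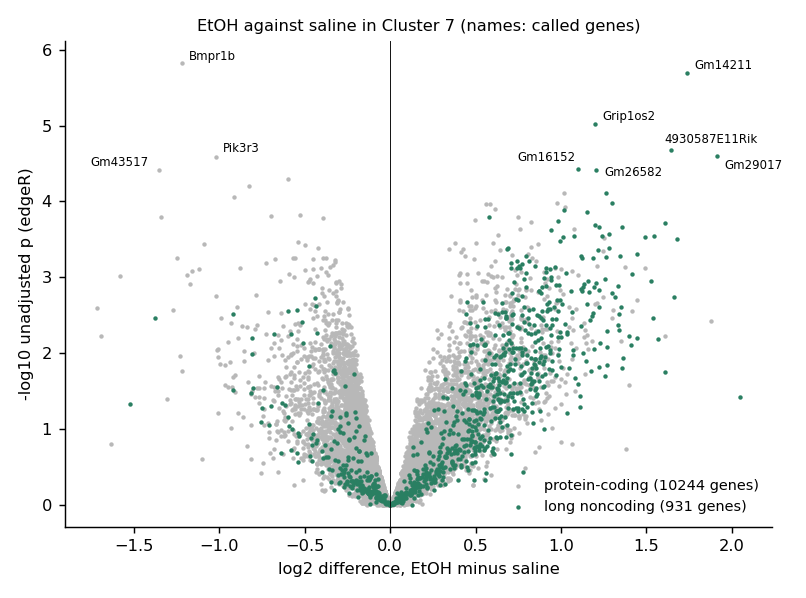
Log2 difference (EtOH minus saline) of each gene tested in Cluster 7 against −log10 of its unadjusted edgeR p, for 10244 protein-coding (grey) and 931 long noncoding genes (green). The 9 called genes are named, and most green points lie right of 0, with a median of 0.42.

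Imprinted genes held no call among 31 tested. At an unadjusted p under 0.05, 10 were lower (32.3%) and 2 higher (6.45%), against 7.01% and 10% over all genes tested, and 23 had a negative log2 difference (74.2% against 48.4%), with a median of −0.15 against 0.01 over all genes tested. Peg3 was at 162, 225, 232, 144 and 149.8 CPM in saline and at 144, 92.1, 102, 132, 77.2 and 170.3 CPM in EtOH embryos, so that the groups overlapped, and its log2 difference was −0.63 ± 0.21 (edgeR adjusted p = 0.153). For Usp29, across the printed stretch, it was −0.23 ± 0.11 (edgeR adjusted p = 0.273). Calcr was at 27.1, 23.6, 25.7, 14.4 and 51.2 CPM in saline and at 15.1, 0, 1.75, 9.09, 2.86 and 18.4 CPM in EtOH embryos, with a log2 difference of −1.69 ± 0.50 (edgeR adjusted p = 0.127). Ube3a, the ubiquitin ligase of Angelman syndrome, went the other way at 582 ± 95.7 and 793 ± 65.6 CPM, and its groups did not overlap (log2 difference 0.41 ± 0.10, edgeR adjusted p = 0.0766). None of these passed the test in edgeR, and the genes were named after their values were seen. The list's median lay between −0.27 and −0.10 in every alternative.

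The 3 genes of the cluster's name were not called either. Snhg11 was at 916, 946, 660.2, 863 and 1317 CPM in saline and at 890.0, 1778, 1447, 1652, 1446 and 1260.4 CPM in EtOH embryos, overlapping through E1-1 and S2-4 (log2 difference 0.55 ± 0.18, edgeR adjusted p = 0.148). Magel2 was at 39.5 ± 16.6 and 22.1 ± 10.8 CPM (−0.77 ± 0.33, edgeR adjusted p = 0.259), and Gad2 at 597 ± 100.5 and 616 ± 166 CPM (0.00 to 2 decimals, SE 0.18, edgeR adjusted p = 0.999). In the alternatives, Snhg11 was called in 3 of 26 (adjusted p of 0.0308 to 0.681), Magel2 in 1 of 25 and Gad2 in 0 of 26. A further alternative left out nuclei with UMIs of Slc17a6, Slc17a7, Neurod2 or Neurod6, from 30 nuclei in E2-3 to 543 in S2-1. There edgeR called 16 genes higher and 2 lower in Cluster 7, of which 2 of the higher ones were among the 6.

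Other groups of genes likewise held no call, and their counts at an unadjusted p under 0.05 stand beside the 10% higher and 7.01% lower over all genes tested. Among 16 progenitor and cell cycle genes, 6 were lower at an unadjusted p under 0.05 and none higher, with a median log2 difference of −0.45. Mki67 was at 28.3 ± 11.1 and 17.1 ± 3.25 CPM and Top2a at 28.9 ± 14.8 and 14.5 ± 7.42 CPM. Top2a UMIs in other clusters of the same libraries were found in 6.83% to 16.8% of nuclei in saline and 0.478% to 4.42% in EtOH embryos in Cluster 1. In Cluster 5 these shares were 11.6% to 18.4% and 4.31% to 9.46%. After thinning they were 1.86% to 5.34% and 0.296% to 2.37% in Cluster 1. In Cluster 5 they were then 3.93% to 7.23% and 2.13% to 4.74%, so that the ranges overlapped in both clusters. The part of such UMIs in the list's values was not tested. With only genes of at least 10 counts in every embryo, 2 of these 16 were tested and their median was 0.11. Among 19 migration and immature neuron genes, 4 were lower and none higher, with a median of −0.17, and Sox11, a factor of newborn neurons that was chosen after its values were seen, was at 334 ± 48.8 and 213 ± 43.9 CPM (−0.70 ± 0.14, edgeR adjusted p = 0.0644). Among 9 glutamatergic neuron genes, 3 were lower and none higher, with a median of −0.42, beside the Gad2 shares in Cluster 1 given above, and Slc17a6 was at 115 ± 34.7 and 117 ± 12.7 CPM. Among 28 presynaptic release genes, 4 were higher (14.3%) and none lower, with a median of 0.04. Of 72 ribosomal protein genes, 11 were higher (15.3%) and none lower, with a median of 0.35, and 6 of the 72 (8.33%) had a negative log2 difference against 48.4% of all genes tested. Neither the 5 GABA synthesis and transport genes nor the 14 diencephalic factors tested had a member at an unadjusted p under 0.05, with medians of 0.05 and −0.11.

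Markers of other cell types were compared beside these values. Projection neuron markers summed to 156 to 182 CPM in saline and 113 to 222 CPM in EtOH embryos, and all 5 tested had a negative log2 difference, 2 at an unadjusted p under 0.05, with a median of −0.42. Intermediate progenitor markers summed to 17.7 to 32.7 CPM and 11.3 to 35.7 CPM, and both of the 2 tested were negative with a median of −0.70. Radial glia markers summed to 90.7 to 224 CPM and 89.0 to 225 CPM. Microglia markers summed to 15.5 to 38.8 CPM and 27.2 to 55.4 CPM, and neither of the 2 tested was negative, with 1 higher at an unadjusted p under 0.05 and a median of 0.66. Those of red blood cells summed to 19.8 to 170 CPM and 46.1 to 68.6 CPM. Striatal markers summed to 724 to 1333 CPM and 450.2 to 1807 CPM, and thalamic markers, which include Slc17a6, to 376 to 969 CPM and 452 to 1386 CPM, with none of the 5 thalamic markers tested negative and a median of 0.29. Pericyte markers summed to at most 8.71 CPM and oligodendrocyte precursor markers to at most 7.15 CPM. None of the tested markers on the 12 lists was called. The part of these cells in the differences was not tested.

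Of 17 genes taken from the study's text on EtOH, which gives Fam19a with no number (read here as Fam19a1, Fam19a2 and Fam19a4) and a symbol read here as Hmga2, 15 were tested in Cluster 7 and none was called. In the alternatives, Hmga2 was called in 1 of 23 and Ebf2, a factor of early neurons, in 1 of 26, beside Snhg11 and Magel2 above. Hmga2, a chromatin protein of neural progenitors, had the largest difference at −1.30 ± 0.55, with 29.1 ± 22.9 and 12.4 ± 8.89 CPM (edgeR adjusted p = 0.264). Robo3, a guidance receptor, was at 9.47 ± 4.16 and 15.7 ± 10.0 CPM (0.75 ± 0.38), and Rgs6, a regulator of G protein signaling, at 96.0 ± 26.8 and 143 ± 60.1 CPM (0.60 ± 0.29), both at an edgeR adjusted p of 0.329. The other 10 of these beside Snhg11 and Magel2 lay between −0.74 for Rspo2 and 0.18 for Dync1i1. On leaving out 1 embryo, Rspo2 ran from −2.04 to −0.28, Tnc from −0.91 to −0.03 and Hmga2 from −1.53 to −0.91. Egfr, the epidermal growth factor receptor, was too low to be tested, at 4.06 and 4.55 CPM in saline and EtOH, as was Gmnc. The study picked its genes on these libraries, so they are not independent of the data.

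The EtOH difference of Cluster 7 was compared with that of Clusters 13, 15 and 18, the interneuron clusters with no further name, by an interaction of cluster and treatment with the embryo as a block. No gene passed against Cluster 13 (0 of 9782, 0%) or Cluster 18 (0 of 9278, 0%), where 412 and 381 genes had an unadjusted p under 0.05 in edgeR. Limma on the differences within embryos also called 0 against both. Against Cluster 15, 1 of 10718 genes (0.00933%) passed, Tmtc1, an O-mannosyltransferase of the endoplasmic reticulum. Its level in Cluster 7 was 82.5, 54.9, 50.5, 58.4 and 91.5 CPM in saline and 95.7, 106, 101, 103, 119 and 101 CPM in EtOH embryos. Every EtOH embryo was above every saline embryo, as was so for 0.939% of genes tested in Cluster 7. Tmtc1 was called in neither cluster alone (edgeR adjusted p = 0.0768 in Cluster 7 and 0.463 in Cluster 15). The log2 difference was 0.59 in Cluster 7 and −0.23 in Cluster 15, and the interaction was 0.84 ± 0.14 (edgeR adjusted p = 0.0477). Tmtc1 passed without S1-1 or E2-4, but not without any of the other 9 embryos nor in limma, and it was not the 1 gene called in nuclei thinned to 2000 UMIs. Its annotation overlaps others on both strands.

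Bmpr1b had the second smallest p against Cluster 15, with log2 differences of −1.22 in Cluster 7 and 0.11 in Cluster 15, and did not pass (interaction −1.25 ± 0.24, edgeR adjusted p = 0.177). Against Cluster 13 the smallest p belonged to Slit2, an axon guidance ligand, at −0.38 in Cluster 7 and −1.08 in Cluster 13 (0.77 ± 0.14, edgeR adjusted p = 0.0642). Slc17a6 led against Cluster 18, at 0.01 in Cluster 7 and −1.16 in Cluster 18 (1.24 ± 0.24, edgeR adjusted p = 0.250). On their own, Cluster 13 had 65 higher and 16 lower genes of 8158 tested, and Cluster 15 had 31 and 7 of 9134. Cluster 18 had 15 and 5 of 7914, against the 6 and 3 of 11284 in Cluster 7. Differences between these counts were not tested, and those of Cluster 7 ran from 0 to 687 higher on leaving out 1 embryo. The study, which used DESingle, reports its highest number of differentially expressed genes for Cluster 7.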

How the data were processed

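The authors isolated nuclei, made libraries with the 10x 3′ kit (version 3.1), aligned reads to mm10 with Cell Ranger (version not given in the sources used here), filtered nuclei and genes, integrated batches and dams, and clustered. The deposited tables hold raw UMI counts per gene and nucleus, 1 for each of 275 pairs of embryo and cluster, with 23513 genes. Names of clusters are the authors'. Doublets were not called here.

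Counts were summed per embryo over Cluster 7 (at least 10 nuclei per embryo) and tested with edgeR 4.0.16 in R 4.3.3 (quasi-likelihood with the robust option, TMM, filterByExpr, treatment as the only term, Benjamini-Hochberg adjustment over all genes tested), with DESeq2 1.42.0 and limma 3.58.1 as alternatives. Percents were compared by two-sided exact permutation tests over 462 splits of the embryos, 210 within batches. Over 6 splits of dams the smallest p is 0.333. Tables were read with pandas 2.3.3 and NumPy 2.4.6, intervals and tests made with SciPy 1.17.1 in Python 3.11.15, and plots with matplotlib 3.10.9. The members and gene lists were chosen with earlier results of these data known. Named genes were the called genes, the genes of the cluster's name and of the study, the called members of each other list (others are said to be chosen later), the 3 smallest p of each interaction, and for levels up to 4 members per list by ratio to the median cluster plus defining genes. Of the listed genes, 10 were not found in the tables. By symbol, 11178 tested genes (99.1%) matched GENCODE M21 on GRCm38.

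The 11 pairs of embryos from 1 dam had a mean chi-square per gene of 3.37 to 10.9, above that of repeated draws from 1 library. Each embryo was counted as 1 sample. These values cannot show that littermates are independent. On counts simulated for the 11284 genes, edgeR recovered 71% of 100 genes changed 2-fold and 99% of 100 changed 4-fold, with 9 false calls among 179. The simulated counts were drawn independently for each embryo, with no dam, batch or outlying embryo. These rates may thus not hold for the real counts. Depth in UMIs per embryo limits precision and covers counting error only in the limits on shares. Results for some genes are not reported here.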

Additional observations from a re-analysis of the deposited data

Results flagged for a closer look

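Of 104 groups of embryos tested for a sample far from the others, 16 had one, and chance flags about 1 in 20. Saline embryo S2-4 stood above its group for 4 of the called noncoding genes, at 11.7 CPM of Gm14211 (others 4.08 to 5.61), 29.0 CPM of Grip1os2 (11.2 to 15.7), 17.3 CPM of 4930587E11Rik (5.24 to 7.50) and 19.2 CPM of Gm26582 (7.89 to 8.71). Saline embryo S2-1 had 15.7% of its nuclei in Cluster 7 (others 4.103% to 6.49%), 30.1 CPM of Otp (4.62 to 10.0), 176 CPM of Isl1 (77.6 to 86.7) and 624 CPM of Fam19a1 (799 to 839). Saline embryo S2-2 had 442 CPM of Ebf2 (115 to 149), and the highest sums of radial glia (224 CPM), striatal (1333 CPM) and meningeal (24.8 CPM) markers. EtOH embryo E1-1 had the lowest median depth, 5153 UMIs (others 8232 to 9150.0). EtOH embryo E1-2 had 44.1 CPM of Tnc (3.06 to 10.0), E2-2 had 18.2 CPM of Rspo2 (0 to 6.01) and E2-3 had 7.15 CPM of oligodendrocyte precursor markers (1.31 to 2.00).

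The EtOH difference of Tmtc1 differed between Clusters 7 and 15 by 0.84 on the log2 scale, by the test of the interaction itself (edgeR adjusted p = 0.0477). It did not pass in limma or without most single embryos, as given above.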

How the results depend on the processing

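The number of genes called after EtOH in Cluster 7 (6 higher, 3 lower) depended on the setting. DESeq2 called 173 higher and 51 lower, no filter on low counts 114 and 56, and at least 10 counts in every embryo 1 and 0. With batch as a term 1 gene was higher and 1 lower, as with library totals in place of TMM. With the dam as a random block in limma's voom there were 654 and 120 calls, with counts summed per dam 288 and 55, and with batch added to the latter 342 and 109, all of which included the 9 genes. Thinned nuclei gave 16 and 0, and an equal number of nuclei per embryo (55) gave 3 and 0. Nuclei without UMIs of Slc17a6, Slc17a7, Neurod2 or Neurod6 gave 16 and 2. Leaving out 1 embryo gave 0 to 687 higher and 0 to 187 lower. Chosen after seeing the data, leaving out S2-1 and E2-2 gave 0 and 0 (610 and 399 at an unadjusted p under 0.05), batch 1 alone 12 and 0, and batch 2 alone 0 and 0 (662 and 461 at an unadjusted p under 0.05). The cause of these differences was not tested, though the last ones use fewer embryos.

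Differences between Clusters 7 and 13 were called for 1 gene with batch by cluster as a term, 2 genes in thinned nuclei and 0 to 4 genes on leaving out 1 embryo. Between Clusters 7 and 15, limma on differences within embryos called 0, and leaving out 1 embryo gave 0 to 2. Between Clusters 7 and 18 each of the 14 alternatives gave 0.

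The percent of nuclei differed by −2.76 to 0.766 points on leaving out 1 embryo, positive without S2-1 only. Nuclei with both GABA and glutamate genes differed by −1.80 points after thinning and −12.1 with splits within batches, neither past the threshold, and by −12.2 between dam means, where no p under 0.333 was possible, and by −14.5 to −8.59 on leaving out 1 embryo. Median UMIs differed by −1949 with splits within batches and by −2400 to −1344 on leaving out 1 embryo.

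The log2 differences of genes near 0 changed sign. Gad2 was 0.021 with at least 10 counts, 0.0082 with batch as a term, 0.086 thinned, 0.048 with library totals, 0.067 without the nuclei of highest UMIs, 0.12 without S2-1 and E2-2, 0.024 in batch 2 alone and −0.12 to 0.081 on leaving out 1 embryo. Fam19a1 was −0.021 in voom, −0.0077 and −0.0073 summed per dam without and with batch, −0.062 with equal nuclei and −0.095 to 0.28 on leaving out 1 embryo. Vwc2 was 0.010 with batch as a term, 0.0049 in voom, 0.077 thinned, 0.66 with equal nuclei, 0.61 in batch 2 alone and −0.45 to 0.18 on leaving out 1 embryo. Ebf2 was 0.023 in DESeq2, 0.015 with library totals, 0.46 and 0.43 summed per dam without and with batch, 0.037 thinned, 0.56 with equal nuclei, 0.98 in batch 1 alone and −0.23 to 0.46 on leaving out 1 embryo. Tnc was 0.13 in DESeq2, 0.00057 with batch as a term, 0.54 in batch 1 alone and −0.91 to −0.029 on leaving out 1 embryo. Without nuclei with UMIs of Slc17a6, Slc17a7, Neurod2 or Neurod6, Dync1i1 was −0.036 and Robo3 −0.077. Dync1i1 was −0.0016 to 0.32 on leaving out 1 embryo. Rgs6 was −0.18 in batch 1 alone and Olfm3 0.36 in batch 2 alone. No called gene changed sign in any alternative in which it was tested.

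No paired analysis was possible because the sample numbers restart in each dam and tie no saline embryo to an EtOH embryo. Depth limits genes under the filter and the embryos with few nuclei, such as E1-2 with 55.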

Other observations

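Here 3 lists that the text has not described gave these values in Cluster 7. Of 22 glutamate receptor subunits at 5 CPM or more, 6 were among the top 3 clusters and none was the highest, with a median log2 difference after EtOH of 0.07 and no call. Of 33 Wnt pathway genes at that level 1 was among the top 3, and 3 of 36 tested were higher and 3 lower at an unadjusted p under 0.05 (8.33% each, near the 10% and 7.01% over all genes tested) with no call. Of 12 apoptosis and p53 genes tested, 1 was lower (8.33%) at that level and none higher, with no call.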
